A study of Saccharomyces cerevisiae with 21 samples.

Results

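Trehalose is a glucose disaccharide that yeast stores as a reserve and that protects proteins and membranes under stress. It is made by a complex in which Tps1 joins UDP-glucose and glucose 6-phosphate to trehalose 6-phosphate, Tps2 removes the phosphate, and the large subunits Tps3 and Tsl1 hold and regulate the complex. Trehalases split the sugar back to glucose: Nth1 is the main cytosolic (neutral) trehalase, Nth2 its paralogue, and Ath1 the acid trehalase, which acts on trehalose outside the cytosol. Msn2 and Msn4 are related zinc-finger activators of the general stress response that protein kinase A keeps in check.

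The genes examined were these 7, chosen by name: TPS1 (YBR126C), TPS2 (YDR074W), TPS3 (YMR261C), TSL1 (YML100W), NTH1 (YDR001C), NTH2 (YBR001C) and ATH1 (YPR026W). Each had 1 probe set of its own on the Affymetrix yeast array, and all 7 were above the floor on every array, among 5461 genes tested of 5656 with a single-gene probe set. The study grew Saccharomyces cerevisiae in chemostats, in which the feed rate fixes the growth rate, and asked how reserve carbohydrate genes respond to the nutrient that limits growth and to the loss of Msn2 and Msn4. All 21 arrays, 3 in each of 7 groups, were titled anaerobic, and their cultures were diluted at 0.10 per h and held at pH 5.0. For the C-limited wild type the labels do not state independent cultures. Its spread may be technical, which bears on every p-value against that group. Growth of the wild type was held back by glucose as the carbon source (C), or by nitrogen (N), phosphorus (P), sulfur (S) or zinc (Zn), and that of the msn2 msn4 strain by C or N. Residual glucose was aimed at 17 g/L in all groups but the C-limited ones, so glucose was scarce in one arm and plentiful in the other of any comparison with C limitation. The wild type is the prototrophic MATa strain CEN.PK113-7D, although the text of the N-limited arrays names no strain and describes aerated, glucose-limited growth beside its N-limited medium. Its groups were taken from the titles. The mutant carries the alleles msn2::loxP and msn4::loxP-kanMX-loxP in a ura3 background with a URA3 plasmid, and no label says how many clones were used. It therefore also differs from the wild type in its ura3 allele and plasmid.

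The signals are the deposited linear array values, scaled here so that every array has the same trimmed mean (150.2), with values under 12 raised to 12. They are relative units, and the level of one gene cannot be set against that of another. A gene was called when its change between groups had an adjusted p under 0.05 and was at least 2-fold, in limma, a linear model fitted to all genes tested. Folds are ratios of geometric means, values after ± are SD with n = 3 for signals and standard errors for log2 changes. A culture's RNA pools all its cells, so fewer expressing cells and less transcript per cell cannot be told apart. The labels fall into 4 protocol texts: the C-, N- and Zn-limited wild types have one each, and the S- and P-limited wild types and both mutant groups share the last. Protocol text and group cannot be told apart except within that last set. The actin 3'/5' signal ratio, which rises as RNA degrades, was 1.05 to 1.20 in the C-limited wild type, 1.18 to 1.23 in the N-limited wild type and 1.18 to 1.67 in the other groups.

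The labels of the mutant were checked first. MSN2 was at or near the floor on the 6 mutant arrays (12.0 to 13.7), whereas the wild type ranged from 58.0 to 147. MSN4 ran from 34.5 to 55.6 in the mutant and from 47.3 to 153 in the wild type, so its loss rests on the labels. URA3, which the mutant carries on a plasmid, ran from 1087 to 2473 in the mutant and from 30.5 to 82.4 in the wild type. Among the C-limited mutant arrays, the one labelled replicate 1 stood apart. Over 580 genes that separate C-limited (0) from N-limited wild type (1), it lay at 0.695, against 0.237 and 0.290 on replicates 2 and 3 and 0.684 to 0.806 on the N-limited mutant arrays. It was kept as labelled, and values without it are given beside the comparisons of the C-limited mutant.

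In the wild type, 2 of the 4 genes of the synthesis complex, TSL1 and TPS3, rose under N against C limitation, and so did the main trehalase gene NTH1. The gene with the largest rise among the 7 was TSL1, a large subunit of the complex. Its signal was 97.0, 81.7 and 91.4 on the C-limited arrays and 225, 235 and 243 on the N-limited arrays. The groups were far apart, with the lowest N-limited array above every C-limited one, and TSL1 rose 2.61-fold (log2 1.38 ± 0.23, limma adjusted p 0.00051). TPS3, the other large subunit, read 107, 101 and 145 in C limitation against 239, 239 and 277 in N limitation. It too showed no overlap and rose 2.16-fold (adjusted p 0.0047).

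TPS2, the phosphatase, read 163, 140.1 and 141 in C limitation and 272, 305 and 267 in N limitation. These groups did not overlap either, and the change passed the adjusted p (0.0057) but at 1.90-fold lay just under the 2-fold bound, so it was not called. TPS1, the synthase itself, differed least among the 4 complex genes. Its signals were 377, 391 and 335 in C limitation against 501, 495 and 594 in N limitation, a log2 difference of 0.53 with a 95% interval from 0.04 to 1.01 and an adjusted p of 0.11.

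Among the trehalase genes only NTH1 was called. NTH1 read 169.9, 169 and 157 in C limitation and 435, 379 and 340.2 in N limitation, and it rose 2.32-fold (log2 1.21 ± 0.20, adjusted p 0.00049). The spread among the N-limited arrays was under the gap between the groups. NTH2 had a mean of 84.8 ± 9.79 against 126 ± 7.55, with no overlap, but an adjusted p of 0.12. ATH1 overlapped between the groups, at 75.1 ± 12.2 in C and 70.6 ± 12.5 in N limitation, and its log2 difference of -0.09 had a 95% interval from -0.48 to 0.30.

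For 6 of the 7 genes every N-limited array was above every C-limited one, as held for 28.4% of all genes tested. In all, 3 of the 7 genes were called higher under N than under C limitation and none lower, where 6.54% of all genes tested were called higher and 3.85% lower. The median log2 change was 0.93 for the 7 and 0.10 for all genes. Relative to that median gene the log2 changes were 1.28 for TSL1, 1.12 for NTH1 and 1.01 for TPS3. After scaling the arrays to a common median, which moves the median gene from 0.10 to -0.09, the log2 changes of TPS3 (0.87) and NTH1 (0.97) fell short of the 2-fold bound, with adjusted p of 0.0032 and 0.0048, and TSL1 was still called.

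**Figure D1:**
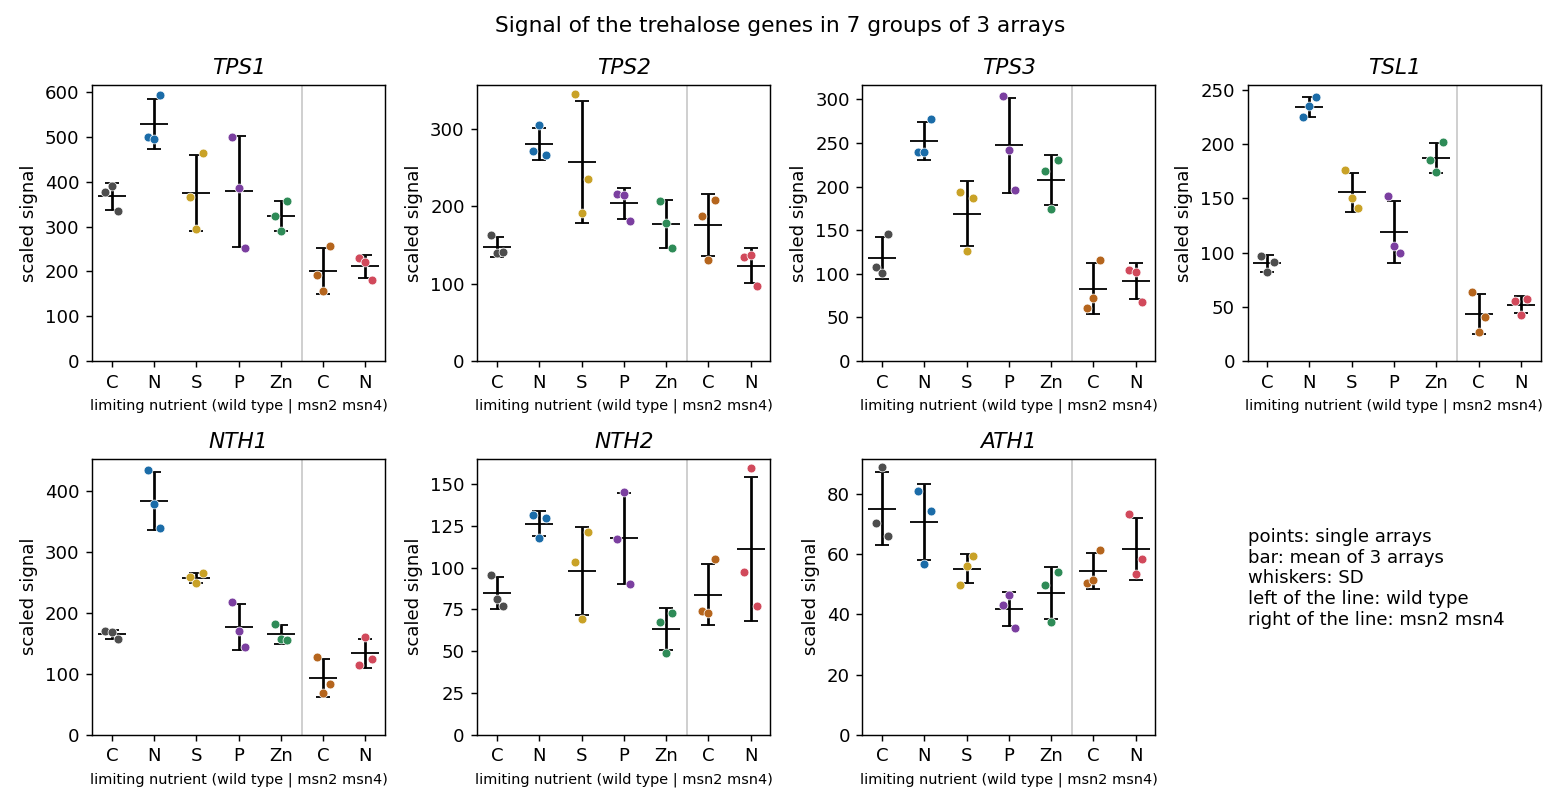
Scaled signal (linear, relative units) of each trehalose gene on the 21 arrays, grouped by limiting nutrient, with wild type left of the line and msn2 msn4 right of it. Points are arrays, horizontal bars the mean of 3 and whiskers the SD. TSL1 on the 6 mutant arrays (27.1 to 63.4) lies below all 15 wild-type arrays (81.7 to 243), while NTH2 and ATH1 overlap between the strains.

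Which genes were called varied among the other limitations, and no gene of the 7 was called in all 4 comparisons with C limitation. Whether the genes differed from one another in their response was not tested. Under S limitation limma called 0 of the 7, where 10.8% of genes were called in either direction, and 4 of the 7 had an unadjusted p under 0.05. Of these, TPS2, TSL1 and NTH1 passed the adjusted p on the higher side, as did 9.12% of all genes, but stayed below the 2-fold bound. NTH1 was the tightest: 259, 249 and 266 under S limitation, all above the C-limited arrays, a log2 difference of 0.64 ± 0.20 (adjusted p 0.031). TSL1 had 176, 151 and 141, again with no overlap, and a log2 difference of 0.79 ± 0.23 (adjusted p 0.022). TPS2 had a wide spread, with 345, 192 and 236, and a log2 difference of 0.76 (adjusted p 0.018).

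Under P limitation TPS3 was the one gene called. It read 304, 242 and 196, all above the C-limited arrays, and rose 2.09-fold (log2 1.06 ± 0.25, adjusted p 0.0052), where 3.94% of genes were called higher. That call ended without C-limited replicate 2 (log2 0.96) or P-limited replicate 1 (log2 0.90), both under the 2-fold bound with an adjusted p of 0.026. ATH1 stood lower: 42.9, 46.5 and 35.5 against 70.3, 88.9 and 66.0 in C limitation. Its arrays did not overlap, and the 1.80-fold difference passed the adjusted p (0.0032) but not the 2-fold bound. TPS1 (log2 -0.01) and NTH1 (log2 0.08) were close to their C-limited levels, with 95% intervals from -0.49 to 0.48 and from -0.34 to 0.51.

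Under Zn limitation TSL1 was called and NTH1, the other strong riser in N limitation, was not. TSL1 read 185, 174.5 and 202 and rose 2.08-fold over C limitation (log2 1.06 ± 0.23, adjusted p 0.0023), where 9.05% of genes were called higher. The call ended without C-limited replicate 2 (log2 0.99, adjusted p 0.013) and under both other scalings (log2 0.99 with quantile normalisation, 0.85 with a common median), each time for falling under 2-fold. NTH1 read 182, 157 and 155, inside and around its C-limited range, with a log2 difference of -0.01 and a 95% interval from -0.43 to 0.42. TPS3 had a log2 difference of 0.83 (adjusted p 0.020) and ATH1 of -0.68 (adjusted p 0.011), both short of 2-fold. The actin ratio was above all C-limited arrays on every S-, P- and Zn-limited array, and its part in these differences was not tested.

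**Figure D2:**
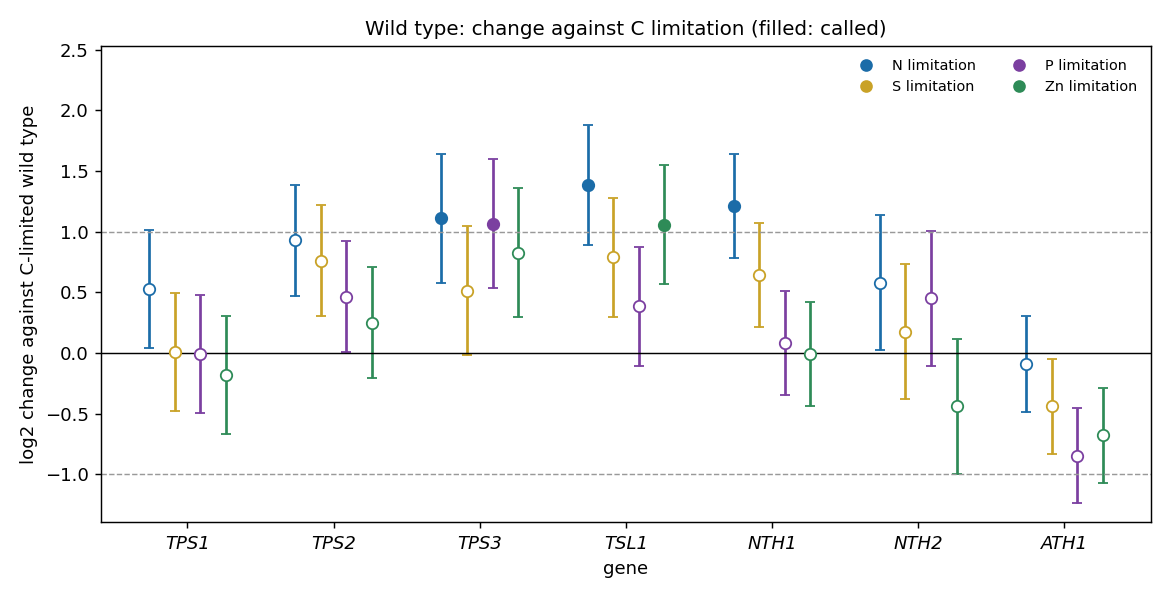
Log2 change of each gene against C-limited wild type (vertical axis) in N, S, P and Zn limitation, with 95% intervals from limma and filled points for called changes. Dashed lines mark the 2-fold bound. TSL1 is called in N and Zn limitation, TPS3 in N and P limitation and NTH1 in N limitation, and all 4 ATH1 points lie below 0, none of them called.

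Among the 4 limitations with glucose in excess, the 3 calls were all for neutral trehalase genes. NTH1 was 2.19-fold higher under N than under P limitation (log2 1.13 ± 0.20, adjusted p 0.00067), where 11.6% of genes were called higher. Without P-limited replicate 3 its log2 difference was 0.99, and after scaling to a common median 0.70, both short of 2-fold. NTH1 was also lower under Zn than under N limitation (log2 -1.22 ± 0.20, adjusted p 0.00037), where 3.37% of genes were called lower. NTH2 read 67.2, 48.9 and 73.0 under Zn limitation and 132, 118 and 129.7 under N limitation. It was 2.03-fold lower under Zn limitation (log2 -1.02 ± 0.26, adjusted p 0.012), a call that ended without Zn-limited replicate 2 (log2 -0.85, adjusted p 0.066), without N-limited replicate 1 (log2 -0.99) or after scaling to a common median (log2 -0.98). All 7 genes were lower on every Zn-limited than on any N-limited array, as were 23.1% of all genes. Limma called 0 of the 7 between N and S limitation, where 11.1% of all genes were called, between Zn and S (15.8%) or between Zn and P limitation (15.2%). At an unadjusted p under 0.05 there were 4, 3 and 2 of the 7 in these comparisons.

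Changes close to the bound were also seen. TSL1 stood higher under N than under P limitation by a log2 difference of 0.9999 (adjusted p 0.0040), short of the bound by less than the rounding of the values. It was called without N-limited replicate 1 (log2 1.03) or P-limited replicate 1 (log2 1.19). Over the 10 alternative settings, however, its log2 difference ran from 0.57 to 1.01, with limma adjusted p up to 0.11. ATH1 was 0.76 higher on the log2 scale under N than under P limitation (adjusted p 0.0057). This too depended on the processing: over the 10 settings the log2 difference of ATH1 ran from 0.33 to 0.83, with limma adjusted p up to 0.17. NTH2 was 0.89 lower on the log2 scale under Zn than under P limitation (adjusted p 0.016), and it was called after quantile normalisation (log2 -1.22), after scaling to a common median (log2 -1.28), and without Zn-limited replicate 3 (log2 -1.01) or P-limited replicate 3 (log2 -1.07).

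P and S limitation share a protocol text. Between them limma called 0 of the 7 genes, where 4.23% of all genes were called, and 3 of the 7 had an unadjusted p under 0.05. The widest differences were those of NTH1 (log2 -0.56, adjusted p 0.11) and TPS3 (log2 0.55, adjusted p 0.22). NTH1 read 218, 170.2 and 144 under P limitation against 259, 249 and 266 under S limitation. Without the C-limited mutant array that stood apart, the limma adjusted p of NTH1 was 0.043, still under the 2-fold bound. NTH1 and ATH1 lay lower on every P-limited array than on any S-limited array and TPS3 higher, while the other 4 genes overlapped; 14.1% of all genes were lower and 6.63% higher without overlap.

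The msn2 msn4 strain was then compared with wild type under N limitation. Mean wild-type signal was highest in that limitation for all of the 7 but ATH1. All 4 complex genes and NTH1 fell. TSL1 read 55.4, 42.8 and 57.5 in the mutant against 225, 235 and 243 in the wild type, and TSL1 fell 4.55-fold (log2 -2.19 ± 0.23, adjusted p 6.9e-06). The mutant arrays also lay below the C-limited wild type, by a log2 difference of 0.80 (adjusted p 0.018). NTH1 read 115, 160.3 and 125 and fell 2.90-fold (log2 -1.53 ± 0.20, adjusted p 6.9e-05).

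TPS3 read 105, 102 and 67.4 in the N-limited mutant, a fall of 2.80-fold (adjusted p 0.00083). TPS1 read 231, 221 and 182 and fell 2.51-fold (log2 -1.33 ± 0.23, adjusted p 0.00099). TPS1 had not been called in any comparison of wild-type groups, and all 3 mutant arrays lay below the lowest wild-type array of any limitation (252). TPS2 read 135, 138 and 97.5 and fell 2.30-fold (log2 -1.20 ± 0.22, adjusted p 0.0013). After scaling to a common median the TPS2 log2 change was -0.96 and no longer passed 2-fold, with an adjusted p of 0.0043.

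NTH2 and ATH1 did not pass the test. NTH2 read 97.4, 159.6 and 76.8 in the mutant, on both sides of the wild-type arrays, with a log2 difference of -0.25 and a 95% interval from -0.81 to 0.31. ATH1 read 73.1, 53.3 and 58.2, with a log2 difference of -0.20 and an interval from -0.59 to 0.20. The intervals of both genes leave room for a fall smaller than 2-fold.

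Under N limitation 5 of the 7 genes were thus called lower in the mutant and none higher, where 5.49% of all genes were called lower and 2.34% higher. The same 5 lay lower on every mutant array, as did 29.1% of all genes. The median log2 change was -1.33 for the 7 and -0.14 for all genes, and relative to that median gene TSL1 was lower by 2.05 and TPS2 by 1.07 on the log2 scale. The comparison uses the same N-limited wild-type arrays as the comparison of N with C limitation, so the rise in one and the fall in the other are not independent. The actin ratio was 1.52, 1.67 and 1.18 on the mutant arrays against 1.18 to 1.23 in the wild type. Mutant replicate 3, with the ratio of 1.18, read 182 for TPS1, 97.5 for TPS2, 67.4 for TPS3, 57.5 for TSL1 and 125 for NTH1. These are values of 1 array, and the part of the actin ratio in these differences was not tested.

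**Figure D3:**
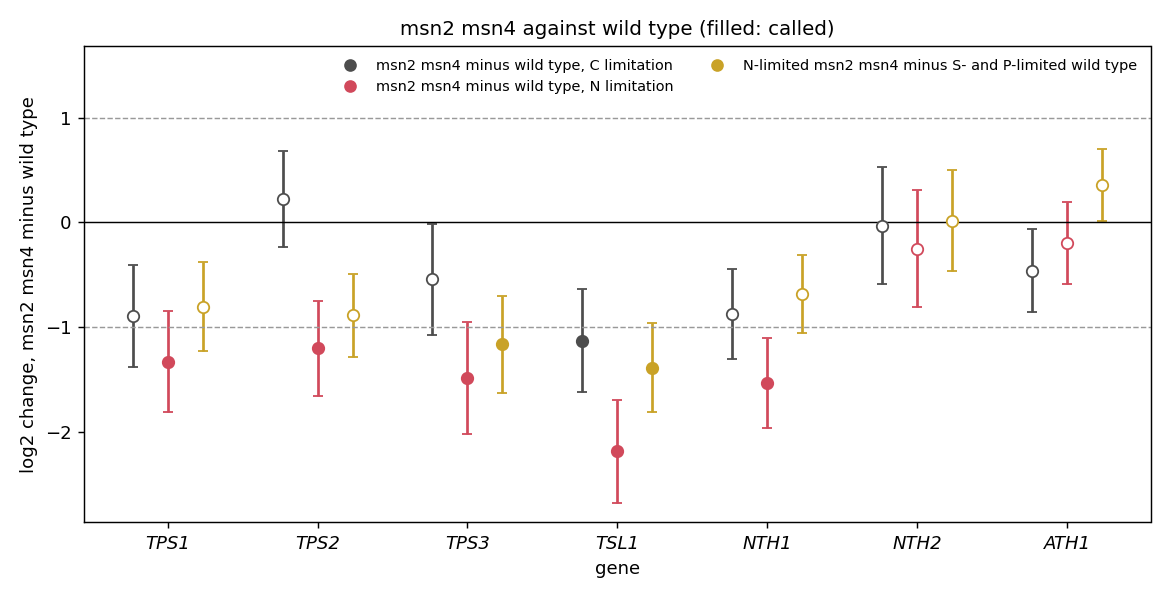
Log2 change of each gene, msn2 msn4 minus wild type (vertical axis), under C limitation, under N limitation and for the N-limited mutant against the S- and P-limited wild type, with 95% intervals from limma and filled points for called changes. Dashed lines mark the 2-fold bound. The 4 complex genes and NTH1 are called under N limitation, and the intervals of NTH2 include 0 in all 3 comparisons.

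Strain and protocol text cannot be told apart in that comparison, but the N-limited mutant shares its text with the S- and P-limited wild type. Against those 6 wild-type arrays, which also had glucose in excess but another limiting nutrient, TSL1 was 2.62-fold lower (log2 -1.39 ± 0.20, adjusted p 2.0e-04) and TPS3 2.24-fold lower (log2 -1.16 ± 0.22, adjusted p 0.0020). These 2 of the 7 genes were called lower, where 1.59% of all genes were. TPS2 (log2 -0.89, adjusted p 0.0051), TPS1 (log2 -0.80, adjusted p 0.017) and NTH1 (log2 -0.68, adjusted p 0.020) passed the adjusted p under the 2-fold bound, which makes 5 of the 7 lower by adjusted p where 3.31% of all genes were, and TPS2 was called after scaling to a common median (log2 -1.01). The 4 complex genes were lower on every mutant array than on any of these wild-type arrays, as were 2.75% of all genes. NTH1, NTH2 and ATH1 overlapped between these groups, and the mean of ATH1 was higher in the mutant (61.5 against 48.3). Without N-limited mutant replicate 3 the TPS3 log2 change was -0.96 and only TSL1 was called.

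Under C limitation the mutant differed from the wild type in fewer of the 7 genes. TSL1 read 63.4, 27.1 and 40.2 in the mutant against 97.0, 81.7 and 91.4 in the wild type and fell 2.19-fold (log2 -1.13 ± 0.23, adjusted p 0.0060). It was the one gene called lower, where 1.98% of all genes were. The highest mutant value is that of the array that stood apart. Without it TSL1 fell 2.72-fold (log2 -1.44 ± 0.20, adjusted p 0.00032). Without replicate 2 the log2 change was -0.83, under the 2-fold bound, and with only the 2 groups in the fit the adjusted p was 0.19.

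NTH1 read 128, 68.1 and 83.7 in the C-limited mutant, below all C-limited wild-type arrays. Its log2 difference of -0.87 (adjusted p 0.014) lay under the 2-fold bound, and without the array that stood apart NTH1 fell 2.18-fold (log2 -1.13 ± 0.19, adjusted p 0.0014). TPS1 read 191, 156 and 258, also below the wild type on every array, with a log2 difference of -0.89 (adjusted p 0.025). Without the array that stood apart TPS1 had a log2 difference of -0.87 and an adjusted p of 0.077, and without mutant replicate 3 one of -1.09, which was called. TPS2, by contrast, read 188, 131 and 208 in the mutant, around the wild-type arrays, with a log2 difference of 0.22 and a 95% interval from -0.23 to 0.68. TPS3 (log2 -0.54, adjusted p 0.20), ATH1 (log2 -0.46, adjusted p 0.14) and NTH2 (log2 -0.03, adjusted p 0.99) did not pass. ATH1, like TSL1, NTH1 and TPS1, was lower on every mutant array than on any wild-type array. That held for 12.2% of all genes. In limma 5 of the 7 had an unadjusted p under 0.05. Without the array that stood apart TPS2, TPS3, ATH1 and NTH2 did not pass either. Their log2 differences were then 0.16 for TPS2, -0.34 for TPS3, -0.41 for ATH1 and 0.05 for NTH2. The actin ratio was 1.24 to 1.42 on these mutant arrays, above the C-limited wild type, and its part in these differences was not tested.

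The difference between the mutant effects in N and C limitation was tested directly. TPS2 was called: its change in the mutant was lower under N than under C limitation by a log2 difference of 1.43 ± 0.31 (adjusted p 0.023), where 1.03% of all genes were called lower in that test. The call ended without C-limited wild-type replicate 2 (adjusted p 0.061) or 3 (0.051), N-limited wild-type replicate 1 (0.051) or 2 (0.059), C-limited mutant replicate 3 (0.058) or N-limited mutant replicate 3 (0.074). Without the array that stood apart it held, at a log2 difference of -1.36 and an adjusted p of 0.036. TSL1 had a log2 difference of -1.06 (adjusted p 0.12) and was called without C-limited mutant replicate 2 (log2 -1.36, adjusted p 0.021). TPS3 had one of -0.94 (adjusted p 0.20), NTH1 of -0.66 (adjusted p 0.26) and TPS1 of -0.44 (adjusted p 0.52). Without the array that stood apart the log2 differences were -0.74 for TSL1 (adjusted p 0.13), -1.14 for TPS3 (0.084), -0.41 for NTH1 (0.34) and -0.46 for TPS1 (0.45). For these genes a larger fall in N than in C limitation was therefore not shown.

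Within the mutant, N limitation was compared with C limitation. Here limma called 0 of the 7 genes and 0.0549% of all genes, and 2 of the 7 had an unadjusted p under 0.05. NTH1 had a log2 difference of 0.55 (adjusted p 0.28), TSL1 of 0.33 (adjusted p 0.70), TPS1 of 0.09 (adjusted p 0.96) and TPS2 of -0.50 (adjusted p 0.41). The array that stood apart weighs on this comparison: without it 5.16% of all genes were called. Even then none of the 7 was, although NTH1 passed the adjusted p at 1.75-fold (log2 0.81 ± 0.19, adjusted p 0.011) and TSL1 had a log2 difference of 0.64 (adjusted p 0.067). Those of TPS1 and TPS2 were then 0.07 and -0.44, with adjusted p of 0.94 and 0.33. The wild-type rises between the same limitations were 1.38 for TSL1 and 1.21 for NTH1 on the log2 scale.

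**Figure D4:**
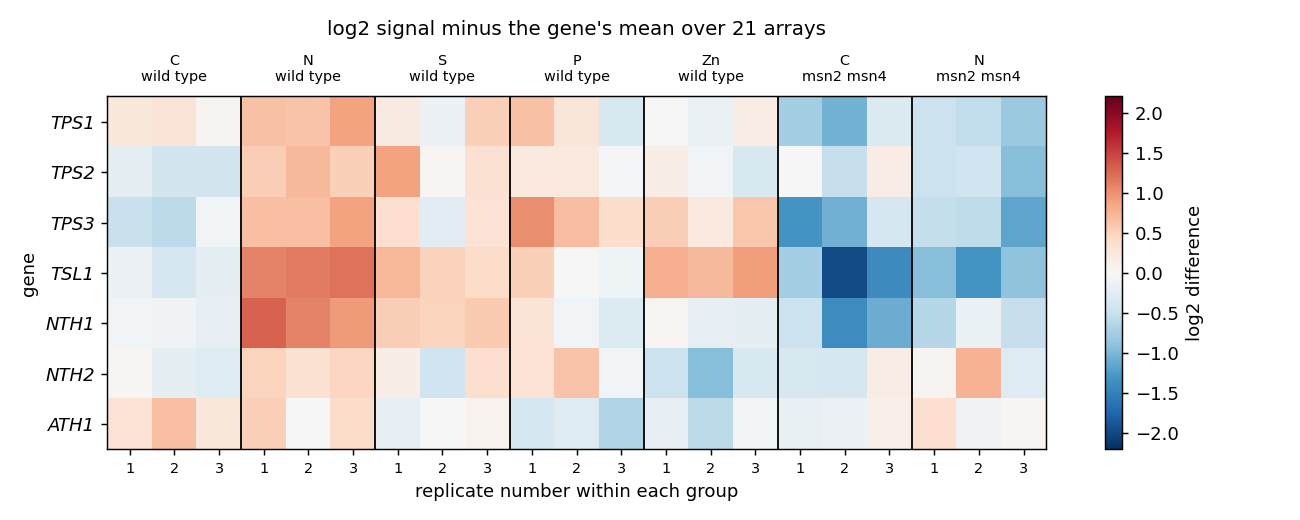
Log2 signal of each gene (rows) on each array (columns, by group and replicate), minus the gene's mean over the 21 arrays; red is above and blue below that mean. The N-limited wild-type columns are red for the complex genes and NTH1, and on C-limited msn2 msn4 replicate 1 TSL1 (63.4) and NTH1 (128) are higher than on replicates 2 and 3 (27.1 and 40.2, 68.1 and 83.7).

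Ranked over the 7 groups, the N-limited wild type was highest for 6 of the 7 genes and the C-limited wild type for ATH1. A mutant group was lowest for the 4 complex genes and NTH1, Zn limitation for NTH2 and P limitation for ATH1. The fold between the highest and the lowest group was 5.71 for TSL1, 4.25 for NTH1, 3.15 for TPS3, 2.67 for TPS1, 2.30 for TPS2, 2.03 for NTH2 and 1.80 for ATH1. Most neighbours in these orders did not differ beyond their spread: of 42 neighbouring pairs of groups, 2 had an adjusted p under 0.05. They were the N- above the S-limited wild type for NTH1 (1.48-fold, adjusted p 0.049) and the C-limited wild type above the N-limited mutant for TSL1 (1.74-fold, adjusted p 0.018). Only for NTH1 did the highest group pass against its nearest neighbour, and for no gene did the lowest. That pass of NTH1 depended on the processing. Its log2 difference ran from 0.26 to 0.58 over the 10 alternative settings, with limma adjusted p up to 0.41. With 1 array left out the adjusted p reached 0.16. With 3 arrays a group, the ordering was thus mostly not resolved, at its ends as in its middle.

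The 7 genes varied together to different degrees. Over the 21 arrays, Pearson's r of log2 signal was 0.85 between TSL1 and NTH1, 0.83 between TPS1 and NTH1, 0.82 between TPS1 and TPS3 and 0.81 between TPS3 and TSL1. ATH1 had r between -0.19 and 0.28 with the other 6, and NTH2 had r from 0.04 with TSL1 to 0.43 with TPS1, and 0.41 with its paralogue NTH1. Within the 15 wild-type arrays the r of TSL1 and NTH1 was 0.68 and that of TPS1 and TSL1 was 0.45, while NTH2 had an r of 0.74 with TPS1 and the highest r was 0.80 between TPS2 and NTH1. After each group's mean was subtracted, TPS1 had an r of 0.72 with TPS3 and 0.69 with NTH2, TSL1 and NTH1 one of 0.61, and TPS3 and TSL1 one of 0.02. These values describe the arrays and carry no test, since arrays of a group share their limitation, strain and protocol text.

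**Figure D5:**
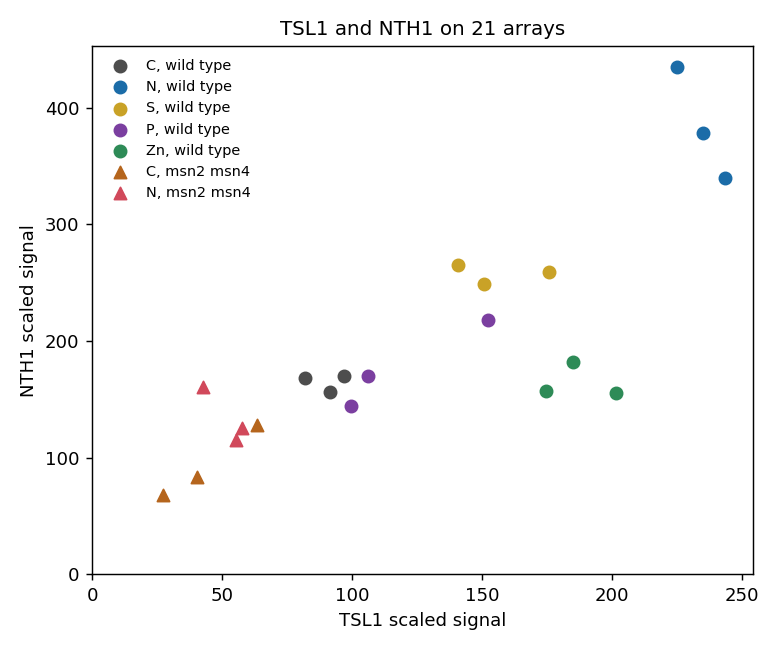
Scaled signal of NTH1 (vertical) against TSL1 (horizontal) on 21 arrays; circles are wild type, triangles msn2 msn4, colours the limiting nutrient. The N-limited wild type is at the upper right, and the Zn-limited arrays have TSL1 between 174.5 and 202 with NTH1 between 155 and 182.

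A list of 14 genes that feed, move or control trehalose was read alongside. Among those that supply the substrates, no gene was called higher in N than in C limitation, and the hexokinase gene HXK1 fell 2.76-fold (adjusted p 0.044). The phosphoglucomutase gene PGM2 was 2.05-fold higher in N limitation but had a limma adjusted p of 0.14. Its N-limited arrays all lay above the C-limited ones, as held for 28.4% of all genes. UGP1, which makes the UDP-glucose used by Tps1, went from 491 ± 68.5 in C to 876.5 ± 152 in N limitation, a 1.78-fold difference that passed the adjusted p (0.0018) but not the 2-fold bound. Of the partners of the trehalase, DCS1, a decapping scavenger enzyme that binds Nth1, rose 2.01-fold in N limitation, just past the bound (adjusted p 0.00012). MAL11, a maltose permease that also carries trehalose, fell in every limitation with excess glucose, by 7.46-fold (N), 15.99-fold (S), 28.2-fold (Zn) and 29.6-fold (P). Over the list, each comparison with C limitation called 1 of the 14 genes higher, and 2 lower, or 3 in Zn limitation. The shares of all genes called lower were 3.85% in N, 6.17% in S, 7.73% in P and 5.71% in Zn limitation, and 4.67% were called higher in S limitation. The higher ones were DCS1 in N limitation, the 14-3-3 gene BMH1 in S and P limitation, and the protein kinase A gene TPK3 in Zn limitation.

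In the N-limited mutant 6 of the 14 genes were called lower than in the wild type and none higher, against 5.49% and 2.34% of all genes. They were the phosphoglucomutase gene PGM2 (5.23-fold), HXK1 (3.62-fold), MAL11 (3.10-fold), the disaggregase gene HSP104 (2.47-fold), DCS1 (2.07-fold) and the glucokinase gene GLK1 (2.03-fold). UGP1 was lower by a log2 difference of 0.78 (adjusted p 0.0040), short of 2-fold. In the C-limited mutant 2 of the 14 were called lower, GLK1 (2.18-fold) and MAL11 (20.0-fold), where 1.98% of all genes were. Without the array that stood apart GLK1 was no longer called (2.08-fold, adjusted p 0.074) and MAL11 was 18.4-fold lower. The median log2 change of the 14 was -0.78 in N and -0.27 in C limitation, beside -0.14 and -0.01 for all genes. Without the array that stood apart the list's median in C limitation was -0.34.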

How the data were processed

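The authors deposited linear signal intensity values for 9335 probe sets of an Affymetrix yeast array on 21 arrays, made with GCOS (version 1.2 where stated), per the submitters' processing notes and the labels' protocols. The S- and P-limited and mutant arrays are described as floored at 12, yet the deposited table holds lower values there. Arrays were brought to one trimmed mean (2% off each end), raised to a floor of 12 and log2-transformed. Of 6504 single-gene probe sets the brightest per gene was kept (5656 genes), and 195 genes at the floor everywhere were left out. Names follow R64. A limma model (version 3.58.1, R 4.3.3) of group means used all arrays and 15 contrasts, with Benjamini-Hochberg adjustment over the 5461 genes tested. The procedure was tested on simulated data. The number of arrays limits the precision.

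The labels state independent cultures except for the C-limited wild type, whose spread may be technical. The genes, lists and tests were chosen with earlier results of these data known. All 7 genes, the label checks, called genes of a list of 14 related genes and, per gene, the 2 most correlated genes are named. Promoter motifs, planned for, were not analysed here. Replicate numbers did not pair the arrays: same-numbered arrays had correlations of deviations from -0.53 to 0.32 with medians near 0. No 2 arrays held identical values. Alternatives were quantile and median scaling, floors of 1 and 24, no filter, only the compared groups, a replicate block, all probe sets, a variance trend, array weights and leaving out each array.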

Additional observations from a re-analysis of the deposited data

Results flagged for a closer look

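One result differed between the limitations by a test of the difference itself. The change of TPS2 in msn2 msn4 was a log2 difference of 1.43 lower under N than under C limitation (limma interaction contrast -1.43 ± 0.31, adjusted p 0.023). The call was kept in 6 of the 12 fits that each left out 1 array, with adjusted p from 0.011 to 0.074. In the C-limited groups TPS2 averaged 175 ± 39.97 in the mutant and 148 ± 13.0 in the wild type (SD, n = 3), and in the N-limited groups 123 ± 22.4 and 281 ± 20.8. It was lower on 3 of 3 N-limited mutant arrays than on any N-limited wild-type array. No group had enough arrays for a test of single outlying values.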

How the results depend on the processing

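For each gene and comparison, 10 alternative settings gave 1050 values. Of these, 1036 stayed called in the same direction or stayed not called, 9 lost a call, 5 gained one and none reversed. Leaving out single arrays gave 777 values, with 14 calls lost, 7 gained and none reversed. A change that was not called was given no direction here, so a change of its sign was not counted. The uncalled log2 change of ATH1 in N against C limitation, for one, ran from -0.33 to 0.02 over the 10 settings. After scaling to a common median 1 of the 7 genes was called in N against C limitation (3 in the values reported) and 0 in Zn against C limitation (1), where quantile normalisation also gave 0. With array weights 0 were called in P against C limitation (1) and 2 in the difference of mutant effects (1). With only the compared groups in the fit 0 were called for the mutant in C limitation (1). Leaving out 1 array gave 0 to 1 calls in P against C and in Zn against C limitation, 0 to 2 in the difference of mutant effects and in the C-limited mutant, and 1 to 2 for the N-limited mutant against S- and P-limited wild type. For the N-limited mutant against N-limited wild type, each setting gave 4 or 5 calls and leaving out any array 5. With the replicate block the 7 genes had 3 calls in N against C limitation and 5 in the N-limited mutant, and the block changed no call of theirs. No gene of the 7 had a second probe set, so that alternative could not be made. With 3 arrays a group, changes under 2-fold are poorly resolved.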

Other observations

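The genes whose log2 signal ran most like each of the 7 over the 21 arrays are given as a description, with no test. For TSL1 they were YMR090W (Pearson's r 0.95, signals from 16.4 to 277) and RTC3 (r 0.91), and for NTH1 DCS1 (r 0.93, 81.5 to 247) and YMR196W (r 0.92). For TPS1 they were DCS2, the paralogue of DCS1 (r 0.89, 13.8 to 202), and GPH1, glycogen phosphorylase (r 0.87, 13.2 to 692). TPS2 ran most like UGP1 (r 0.78), which makes UDP-glucose, and HSP12 (r 0.77), a membrane stress protein gene, and TPS3 like CIP1 and YGR201C (r 0.85 each). NTH2 was nearest to YJL068C (r 0.90) and ATH1 to UBC5, a ubiquitin-conjugating enzyme gene, and AIT1 (r 0.83 each). No member of the 7 was among the 2 nearest genes of another: NTH1 had rank 8 for TPS1 and TSL1 rank 9 for NTH1 among the 5460 other genes. The arrays behind each r share their strain, limitation and protocol text within groups.

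Individual arrays varied by gene as well as by group. In P limitation TPS1, TPS2, TPS3, TSL1 and NTH1 were highest on replicate 1 (499, 216, 304, 152 and 218). NTH2 and ATH1 were highest on replicate 2 (145 and 46.5), where TPS2 read 215. The SD of log2 signal within groups ran from 0.22 for ATH1 to 0.34 for NTH2, beside a median of 0.30 over all genes tested.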
